A study of Saccharomyces cerevisiae with 21 samples.

Results

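Transcript levels of the yeast Saccharomyces cerevisiae strain gal11-myc med3Δ were compared with those of wild type, both grown in YPD, a rich glucose medium, at 30 °C to mid-log phase. The comparison rests on 6 of the 21 arrays of the series, chosen by their titles: 3 of the mutant and 3 of wild type. Values of 5449 genes were tested. The wild type is MATa and carries his3Δ1, leu2Δ0, met15Δ0 and ura3Δ0. The mutant is also MATa, with his3Δ1, leu2Δ0 and ura3Δ0. Its MED3 gene, which the files call PGD1, is replaced by URA3 (med3Δ::URA3), and its GAL11 gene carries a MYC tag (GAL11-13MYC::HIS3MX). Its SRB4 gene is deleted (srb4Δ::kanMX) and supplied from the centromeric plasmid RY2844, which holds LEU2 and SRB4. The strains therefore differ in the deletion, the tag, the plasmid and several marker genes, and the part of each in a difference cannot be told apart. The label of the mutant names no met15 deletion. Further values come from the same strains in CSM, the other medium of the series (3 arrays each), and from gal11Δ med3Δ in YPD (3 arrays). That strain is MATα, lacks MED3 (med3Δ::kanMX4) and GAL11 (med15Δ::kanMX4), and carries his3Δ1, leu2Δ0, met15Δ0 and ura3Δ0. The labels do not say that replicate arrays came from separate cultures, so the p-values measure a spread between arrays, which may be technical. That spread was estimated over all 21 arrays of the series and not from the 6 alone.

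Mediator is the protein complex that carries signals from DNA-bound activators to RNA polymerase II. Its tail module holds Gal11 (Med15), Med3 (Pgd1) and Med2, and Gal11 is a direct contact for several activators, among them Gcn4, Gal4, Msn2 and the drug response factors Pdr1 and Pdr3. Srb4 (Med17) is an essential subunit of the head module. The comparison asks which transcripts differ when Med3 is missing and Gal11 is tagged.

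Each deposited value is a log2 level relative to the median of its probe set, taken over wild type and both mutants in YPD (9 arrays), so a value of 0 is that median and not an absence of RNA. Levels cannot be compared between genes on this scale. The arrays numbered 3 stood apart from the others of their group. Over all genes, the correlation of centred values between arrays was 0.911, 0.657 and 0.623 in wild type (arrays 1 with 2, 1 with 3, and 2 with 3) and 0.806, 0.181 and 0.0567 in the mutant. Many results that depend on those arrays are given with and without them. Whole-chromosome medians of the log2 difference lay between -0.0043 and 0.11 in this comparison, so no chromosome was shifted as a whole, unlike in the CSM and gal11Δ med3Δ comparisons described last. The mating type of both strains went with the labels: mean values of the 8 MATa markers were between 0.08 and 0.43 in the wild-type arrays and between 0.20 and 0.68 in the mutant arrays, against -5.09 to -4.90 in the MATα strain. Of 6 MATα markers 5 were measured, with means between -0.29 and -0.05 in wild type, between -0.15 and -0.01 in the mutant, and between 4.97 and 5.57 in the MATα strain.

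The targeted and marker genes were examined first. PGD1 (YGL025C, chromosome VII) read 4.33, 4.54 and 4.02 in wild type and 0.14, -0.09 and -0.07 in the mutant, a 19.7-fold lower level (log2 difference -4.30, SE 0.14, adjusted p = 6.69e-13). GAL11 (YOL051W, chromosome XV) read 0.60, 0.56 and 0.93 in wild type and -0.12, 0.00 and 0.44 in the mutant (log2 difference -0.59, SE 0.15, adjusted p = 0.00491). The tagged gene was thus lower by 1.51-fold, with no overlap between the groups but an adjusted p of 0.0644 in a fit of only the 6 arrays compared, while in the strain that lacks GAL11 it read -5.45, -6.00 and -5.76. URA3, the marker that replaces MED3, read 0.33, -0.49 and -0.07 in wild type and 7.55, 7.56 and 7.02 in the mutant (log2 difference 7.46, SE 0.18, adjusted p = 1.36e-14). LEU2, carried on the plasmid, read 0.41, -0.19 and 0.00 in wild type and 4.67, 4.05 and 1.54 in the mutant (log2 difference 3.35, SE 0.49, adjusted p = 6.38e-05). The third mutant array read lower for LEU2 than the other mutant arrays and still above every wild-type array. HIS3, which both strains carry as his3Δ1, rose by a smaller amount (log2 difference 0.42, adjusted p = 0.000528), and MET17, the gene affected by met15Δ0, differed by 0.08 (adjusted p = 0.68) although of the 2 strains only the wild type is labelled with that deletion. LYS2 differed by 0.26 (adjusted p = 0.137, or 0.0151 without wild-type array 3). SRB4 itself was not measured here. Of the measured neighbours of these genes on the chromosome, TRP5 and PIB2, which flank PGD1, were higher by 0.65 and 0.39 (adjusted p = 5.94e-05 and 0.0149), PRO3 next to SRB4 by 0.47 (adjusted p = 2.75e-05) and NFS1 next to LEU2 by 0.32 (adjusted p = 0.000858). RPN3, GEA2, TIM9, GSH2, MRM1, DED1, RAD16 and TKL2 did not pass the test. PIB2 did not pass without wild-type array 3 or mutant array 2 (adjusted p = 0.0521 and 0.0549), and RAD16, next to LYS2, passed with the replicate number as a block (0.0416, or 0.0175 within the 9 YPD arrays), as did DED1, next to HIS3, within the 9 YPD arrays (0.0342). For the other Mediator subunits, RGR1 (Med14) fell (log2 difference -0.37, adjusted p = 0.00213), SSN3 (Cdk8) fell (log2 difference -0.37, adjusted p = 0.00422), MED4 fell slightly (log2 difference -0.20, adjusted p = 0.0467) and MED8 rose (log2 difference 0.34, adjusted p = 0.00123). MED4 no longer passed without wild-type array 2 or 3 or mutant array 1 or 2 (adjusted p = 0.163, 0.103, 0.143 and 0.132), nor without the 3 YPD arrays numbered 3 (0.0569) or with the replicate block (0.0515). The remaining subunit genes lay between -0.24 (SRB5) and 0.20 (SRB7) and did not pass. Of these, SRB7 passed without wild-type array 3 (adjusted p = 0.0457) and without the 3 YPD arrays numbered 3 (0.00861), and SRB5 with the replicate block within the 9 YPD arrays (0.0184). With only the 6 arrays compared the adjusted p was 0.0564 (SSN3), 0.148 (MED4) and 0.0545 (NFS1).

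A gene was called when its Benjamini-Hochberg adjusted p from limma, a linear model across all genes, was under 0.05 and its difference at least 2-fold, that is 1 on the log2 scale. By this rule 236 genes were called (4.33% of those tested), 140 higher (2.57%) and 96 lower (1.76%) in the mutant. Without the size limit, 1816 genes (33.3%) passed the test, 1157 higher (21.2%) and 659 lower (12.1%). The falls reached further than the rises: at 4-fold or more there were 30 lower and 13 higher genes, and at 8-fold or more 7 lower and 3 higher genes, among the higher ones the 2 markers URA3 and LEU2. In 227 of the 236 called genes the 3 mutant arrays did not overlap with the 3 wild-type arrays, which was so in 42.0% of all genes. The median difference over all genes was 0.03. Called genes just inside the limit were FRD1 (1.002), PUT2 (1.002), YGR035C (-1.003) and STF1 (1.005), and genes that passed the test just outside it were YPR015C (-0.996), SAM3 (0.99), VBA3 (0.99) and EDS1 (0.99). Without wild-type array 2 the adjusted p of YPR015C was 0.075 and that of VBA3 0.0679, and without mutant array 3 that of YPR015C was 0.0643. With only the 6 arrays compared it was 0.115 (SAM3) and 0.0817 (VBA3). The genes named were chosen by a rule on the size of their difference and their list. PDR5, FLO10, GAS1, AQR1, MET3, BNA3, GCN4, UGA1, HOP1, HXT9, RGT2, STD1, MIG1, ROX1 and the genes named outside all lists fall outside it and were named after their values were seen. In RNA from a whole culture, fewer cells with a transcript and less transcript per cell cannot be told apart. In the rest of the text, a gene or list member is said to have risen or fallen when its adjusted p was under 0.05, at any size. Every list count stands beside the shares over all genes, 21.2% risen and 12.1% fallen, and several lists lay near them. These shares moved in the alternative fits run for the lists, from 13.5% to 37% risen and from 7.6% to 28% fallen. A list count that moves in such a fit may therefore move with all genes.

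**Figure D1:**
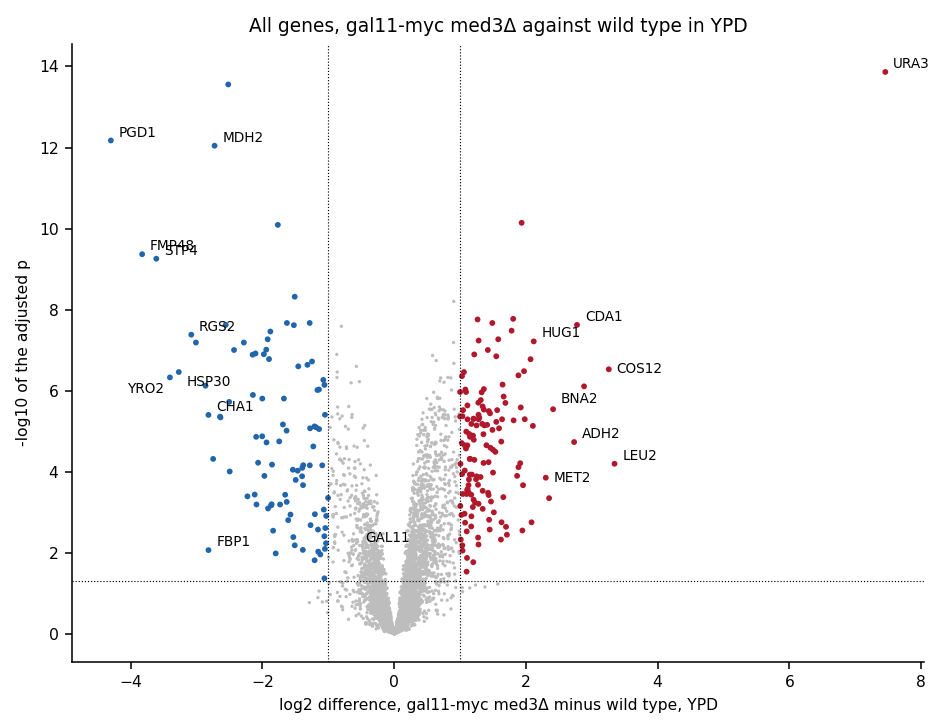
Log2 difference between gal11-myc med3Δ and wild type in YPD (x axis) against -log10 of the adjusted p (y axis) for all 5449 genes. Dotted lines mark 2-fold and an adjusted p of 0.05, called genes are blue (96 lower) or red (140 higher), and the marker URA3 and the deleted PGD1 lie at the far right and left.

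Apart from PGD1, the gene with the largest fall was FMP48, a putative protein kinase, which read 3.96, 3.76 and 3.37 in wild type and 0.05, -0.12 and -0.32 in the mutant, a 14.2-fold difference (log2 difference -3.83, SE 0.19, adjusted p = 4.30e-10). STP4, which encodes a zinc-finger protein related to the amino acid sensing factors Stp1 and Stp2, read 3.63, 3.39 and 3.52 in wild type and 0.00, 0.26 and -0.56 in the mutant (log2 difference -3.61, SE 0.19, adjusted p = 5.54e-10). In both genes all mutant arrays lay more than 2 log2 units below all wild-type arrays. YRO2 and HSP30 encode related membrane proteins of the plasma membrane, and Hsp30 restrains the proton pump Pma1. YRO2 read 2.97, 2.78 and 3.19 in wild type and 0.00, 0.25 and -1.53 in the mutant (log2 difference -3.40, SE 0.31, adjusted p = 4.72e-07). HSP30 read 2.99, 2.80 and 2.86 in wild type and 0.00, 0.20 and -1.35 in the mutant (log2 difference -3.27, SE 0.29, adjusted p = 3.48e-07). Their wild-type arrays were close together, and mutant array 3 was lower than the other mutant arrays in both. Their relative MRH1 fell less (log2 difference -0.86, adjusted p = 2.54e-06). RGS2, a negative regulator of glucose-induced cAMP signalling, read 3.15, 3.17 and 2.32 in wild type and 0.03, 0.00 and -0.63 in the mutant (log2 difference -3.08, SE 0.22, adjusted p = 4.16e-08). WSC4, a member of the Wsc family of cell wall stress sensors, read 2.88, 2.71 and 2.34 in wild type and -0.71, -0.55 and 0.16 in the mutant (log2 difference -3.01, SE 0.23, adjusted p = 6.50e-08). CHA1, the deaminase that lets cells use serine and threonine as nitrogen source, read 1.99, 3.40 and 3.39 in wild type and 0.00, 0.41 and -0.09 in the mutant (log2 difference -2.82, SE 0.31, adjusted p = 3.97e-06). Its wild-type array 1 was lower than the other wild-type arrays, without reaching the mutant arrays. The enzymes Fbp1 and Mdh2 belong to gluconeogenesis. MDH2 read 1.65, 1.62 and 1.53 in wild type and -1.25, -1.14 and -0.995 in the mutant, tight in both groups (log2 difference -2.73, SE 0.09, adjusted p = 9.02e-13). FBP1 spread far wider, since it read 2.95, 3.75 and 2.86 in wild type and 2.28, 0.00 and -1.18 in the mutant (log2 difference -2.82, SE 0.76, adjusted p = 0.00863), and its adjusted p was 0.0538 without mutant array 3 and 0.068 with only the 6 arrays compared. The other genes among the 15 with the largest falls were YER053C-A (-2.86), YGP1 (-2.75), MGA1 (-2.64), TPO2 (-2.64) and TDA6 (-2.56). Of these, YGP1 encodes a secreted glycoprotein, MGA1 a protein similar to heat shock factor, and TPO2 a polyamine exporter, read by 2 probe sets of which 1 can also bind other transcripts. YLR297W, an uncharacterised gene named after its values were seen, fell by less than these (-2.52) but had an adjusted p of 2.77e-14, with wild-type arrays at 2.45, 2.63 and 2.49 and mutant arrays at 0.02, 0.00 and 0.00.

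**Figure D2:**
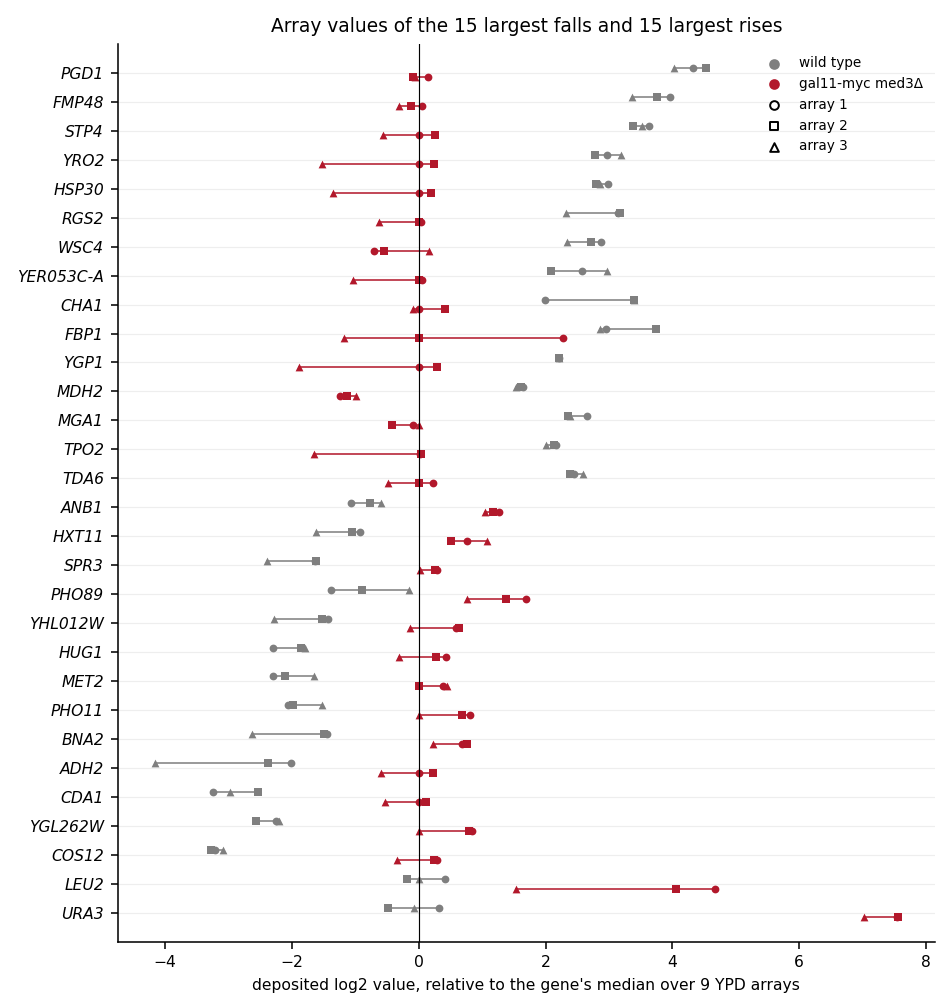
Deposited log2 value (x axis, relative to the gene's median over 9 YPD arrays) in each wild-type (grey) and mutant (red) array for the 15 largest falls and 15 largest rises, with a line from the lowest to the highest array and the array number as the marker shape. The genes were chosen from those without overlap between the groups, and the widest mutant ranges are those of FBP1 (-1.18 to 2.28) and LEU2 (1.54 to 4.67).

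Cell cycle and cell wall genes were lower in part. Of 21 cyclins and cell cycle regulators 7 fell and 1 rose, with a median of -0.24. The mitotic cyclin gene CLB1 read 2.41, 2.39 and 1.54 in wild type and -0.03, 0.38 and -0.30 in the mutant (log2 difference -2.09, SE 0.27, adjusted p = 1.38e-05), and CLB2, the main mitotic cyclin, read 0.89, 1.07 and 1.09 in wild type and -0.47, -0.29 and 0.00 in the mutant (log2 difference -1.27, SE 0.28, adjusted p = 0.00209). RGS2 is a member of that list and no cyclin. CLN3, the cyclin that begins the cycle, fell by less (log2 difference -0.91, adjusted p = 0.000335), and WHI5, a repressor of G1 exit, rose (log2 difference 0.68, adjusted p = 0.00732), though not with only the 6 arrays compared (adjusted p = 0.07). The rising members of that list numbered 2 without wild-type array 2 or 3, 3 without mutant array 3, 4 without the 3 YPD arrays numbered 3 and 2 with the replicate block within the 9 YPD arrays. Of 41 genes for cell wall mannoproteins and remodelling 20 fell and 3 rose, with a median of -0.16. Most of these falls were small: WSC4 was the only fall past 2-fold in this list, followed by CWP1 (-0.92), UTR2 (-0.58), FLO10 (-0.58) and GAS1 (-0.53). TIR3 and GAS2, described with other lists below, also fell past 2-fold. The stress-induced glucan synthase gene GSC2 went the other way and read -1.10, -1.28 and -1.36 in wild type and 0.22, 0.16 and 0.52 in the mutant (log2 difference 1.55, SE 0.13, adjusted p = 1.42e-07). Without wild-type array 2 the falling members of the cell wall list numbered 13, and the rising ones 5 without wild-type array 3 or with the replicate block within the 9 YPD arrays. RNR1, the large subunit of ribonucleotide reductase, read 0.61, 0.58 and 0.63 in wild type and -0.67, -0.59 and -0.67 in the mutant (log2 difference -1.25, SE 0.11, adjusted p = 1.91e-07). Its inhibitor HUG1 and the damage-induced subunit RNR3 rose by 2.12 and 1.28 (adjusted p = 6.09e-08 and 0.00062). Of 9 histone genes 5 fell, led by HTB2 (-0.51), and 2 of 9 passed without wild-type array 1, wild-type array 2, mutant array 1 or mutant array 3.

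Genes of glucose uptake and sensing fell in part. Of 19 hexose transporters and sensors 6 fell and 5 rose, with a median of -0.07. The falls were those of 5 transporters and of STD1, a regulator of glucose sensing (-0.61). HXT1, the low-affinity transporter, read 1.85, 1.71 and 1.68 in wild type and -1.32, -1.61 and 0.68 in the mutant (log2 difference -2.50, SE 0.39, adjusted p = 9.91e-05). HXT3 read 0.57, 0.48 and 0.40 in wild type and -2.01, -2.14 and 0.00 in the mutant (log2 difference -1.87, SE 0.36, adjusted p = 0.000681). In both, mutant arrays 1 and 2 were low and mutant array 3 was nearer to the wild-type arrays, without overlap. HXT4 (log2 difference -1.91, adjusted p = 0.00081) and HXT7 (log2 difference -1.49, adjusted p = 0.00016), a near-identical copy of HXT6, fell too, as did HXT2 (log2 difference -0.63, adjusted p = 0.0202), whose adjusted p was 0.0978 without wild-type array 3, 0.0803 without mutant array 1 and 0.0788 without mutant array 2. Among the rises, HXT11 read -0.93, -1.06 and -1.62 in wild type and 0.76, 0.51 and 1.08 in the mutant (log2 difference 1.98, SE 0.23, adjusted p = 5.07e-06), and its close relative HXT9 rose by 0.89 (adjusted p = 6.93e-05). The glucose sensor gene RGT2 rose by 0.55 (adjusted p = 0.0106, or 0.0643 without mutant array 3). MIG2, a repressor that acts when glucose is high, read 1.08, 1.23 and 0.43 in wild type and -1.57, -1.77 and -0.13 in the mutant (log2 difference -2.07, SE 0.30, adjusted p = 6.01e-05), and MIG1 fell by 0.39 (adjusted p = 0.00751). HAP4, the regulatory subunit of the activator of respiratory genes, read 1.83, 1.68 and 1.76 in wild type and -0.03, 0.00 and 0.28 in the mutant (log2 difference -1.67, SE 0.17, adjusted p = 1.57e-06). GPD1, the first enzyme of glycerol synthesis, read 1.94, 1.72 and 1.97 in wild type and -0.55, -0.38 and 0.25 in the mutant (log2 difference -2.10, SE 0.17, adjusted p = 1.21e-07). Among glucose-repressed genes ADH2, the alcohol dehydrogenase of growth on ethanol, was higher: it read -2.02, -2.38 and -4.17 in wild type and 0.00, 0.23 and -0.60 in the mutant (log2 difference 2.73, SE 0.36, adjusted p = 1.86e-05), with wild-type array 3 the lowest of all. Of 20 genes in a list of gluconeogenesis and the glyoxylate cycle 6 rose and 2 fell, the falls being FBP1 and MDH2. The largest rise was that of FDH1 (log2 difference 1.44, adjusted p = 0.00154), a formate dehydrogenase gene that belongs to neither pathway. The falls of that list numbered 1 without mutant array 3 or without the 3 YPD arrays numbered 3. GAL7 and GAL10, galactose enzymes that are repressed by glucose, rose by 1.16 and 1.09 (adjusted p = 4.83e-05 and 1.08e-06), while GAL1 differed by -0.09 and did not pass. PYK2, a glucose-repressed pyruvate kinase, rose (log2 difference 1.501, adjusted p = 0.000105). With only the 6 arrays compared the adjusted p-values of 5 of these genes were above 0.05, at 0.107 (HXT2), 0.0676 (HXT3), 0.0954 (MIG1), 0.0685 (RGT2) and 0.062 (FDH1).

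Drug transport genes under Pdr1 and Pdr3 were lower in part. Of 23 measured genes 10 fell, 6 of them called, and 2 rose, with a median of -0.33. PDR5, the main drug efflux pump, read 1.16, 1.20 and 1.27 in wild type and 0.00, -0.14 and -0.07 in the mutant (log2 difference -1.28, SE 0.09, adjusted p = 2.14e-08). SNQ2, a second efflux pump, read 1.48, 1.39 and 1.47 in wild type and 0.00, -0.18 and 0.15 in the mutant (log2 difference -1.46, SE 0.13, adjusted p = 2.52e-07). GRE2, a methylglyoxal reductase, read 2.02, 1.80 and 1.57 in wild type and -0.48, -0.49 and -0.49 in the mutant (log2 difference -2.28, SE 0.17, adjusted p = 6.50e-08). For these 3 genes the arrays of each group lay within 0.5 log2 units of each other. TPO4, RSB1 and AQR1 fell by 1.65, 1.54 and 1.07 (adjusted p = 0.000371, 8.96e-05 and 0.000862). RTA1 rose (log2 difference 1.36, adjusted p = 1.19e-05). Over the alternatives run for the lists, 9 to 13 of the 23 fell and 2 to 3 rose, while 7.6% to 28% of all genes fell and 13.5% to 37% rose.

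Stress genes did not move as a block. Of 37 genes under the stress factors Msn2 and Msn4 7 fell and 4 rose, with a median of -0.31. Besides YGP1, DDR2 fell (log2 difference -2.09, adjusted p = 0.000646) and so did SPI1 (log2 difference -1.53, adjusted p = 0.00412), and both read lowest in mutant array 3, at -0.82 and -2.26. HSP12, a membrane stress protein, read 0.79, 0.62 and 0.02 in wild type and 0.00, 0.83 and -3.25 in the mutant, a spread too wide for a call (log2 difference -1.29, adjusted p = 0.171), except without mutant array 2 (adjusted p = 0.0229). The small heat shock protein gene HSP26 differed by -0.99 (adjusted p = 0.0567). It passed with only the 6 arrays compared (0.0376), with only the 9 YPD arrays (0.0117, or 0.00859 with the block), without the BY4742 arrays (0.00318) and without mutant array 1 (0.0476). TSA2, a stress-induced peroxiredoxin, rose (log2 difference 1.95, adjusted p = 0.00283). It was high in mutant arrays 1 and 2 (1.77 and 2.21), while mutant array 3, at -0.03, lay among the wild-type arrays (0.00, -0.62 and -1.28). Of 21 genes of oxidative stress defence and nitroreduction 10 rose and 1 fell, with 3 called: FRM2 (1.15), SRX1 (1.04) and GTT1 (1.04). Without wild-type array 2 or mutant array 3 the falls of that list numbered 2, and with the replicate block within the 9 YPD arrays there was none. The Msn2 and Msn4 list had 11 falling members without wild-type array 3, 13 without the BY4742 arrays and 12 with the block within the 9 YPD arrays. The shares of all genes that fell there were 14.6%, 12.7% and 17.8%. With only the 6 arrays compared the adjusted p was 0.0639 (SPI1) and 0.0817 (TSA2).

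Genes of sulfur metabolism rose. Of 21 genes of sulfate assimilation and methionine synthesis 12 rose and none fell, 5 of them called, with a median of 0.64. Of 16 genes of sulfur transport and salvage 10 rose and none fell, 5 of them called, with a median of 0.66. MET2, which makes O-acetylhomoserine for methionine synthesis, read -2.31, -2.11 and -1.66 in wild type and 0.38, 0.00 and 0.45 in the mutant (log2 difference 2.30, SE 0.37, adjusted p = 0.000141). MET10, a subunit of sulfite reductase, read -1.36, -1.25 and -0.47 in wild type and 0.51, 0.13 and 0.79 in the mutant (log2 difference 1.503, SE 0.21, adjusted p = 2.90e-05). The sulfate permease gene SUL1 read -1.46, -1.35 and -1.37 in wild type and 0.05, -0.34 and 0.14 in the mutant (log2 difference 1.34, SE 0.14, adjusted p = 2.46e-06). In these 3 genes no mutant array reached the wild-type range. MUP3, a methionine permease, MHT1, a methyltransferase for S-methylmethionine, and MMP1, its permease, rose by 1.71, 1.70 and 1.62 (adjusted p = 0.0036, 0.0023 and 0.00474). The arrays of these 3 genes spread widely in both groups, and with only the 6 arrays compared none of them passed, at 0.0788 (MUP3), 0.0914 (MHT1) and 0.133 (MMP1). MMP1 did not pass with only the 9 YPD arrays either (0.0639). MMP1 read -3.01, -2.13 and -0.70 in wild type and 0.00, -1.15 and 0.18 in the mutant. Rises were also found for SAM2 (1.34), MET8 (1.27), MET14 (1.11) and MET3 (0.92), although with only the 6 arrays compared the adjusted p was 0.0721 (SAM2) and 0.101 (MET14). Of these, the adjusted p of MET14 was 0.0792 without wild-type array 1 and 0.082 without mutant array 3, and that of MET3 0.121 and 0.138 without the same arrays and, without the 3 YPD arrays numbered 3, 0.173. Of the regulators, MET28 and MET32, cofactors of the activator Met4, rose. MET28 read -1.41, -1.62 and -1.502 in wild type and 0.76, 0.27 and 0.31 in the mutant (log2 difference 1.96, SE 0.33, adjusted p = 0.000216), and MET32 read -2.41, -1.84 and -1.56 in wild type and 0.30, -0.53 and 0.07 in the mutant (log2 difference 1.89, SE 0.28, adjusted p = 7.74e-05). MET4 itself differed by 0.08 (adjusted p = 0.571), and MET31 fell by 0.31 (adjusted p = 0.0126, or 0.067 without wild-type array 2). Over the alternatives run for the lists, the rising members numbered 8 to 18 of 21 and 4 to 15 of 16. The share of all genes that rose moved too, from 13.5% (only the 6 arrays compared) to 37% (array weights, which did not converge). The met15Δ0 deletion, which lies in this pathway, is named for the wild type and not for the mutant. MET17, the gene it affects, differed by only 0.08 between the strains (adjusted p = 0.68). The part of that label in these rises was not tested.

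Genes of several vitamin and amino acid pathways rose in part. Of 17 genes of NAD and biotin synthesis and uptake 11 rose and 1 fell (2 without mutant array 3), with a median of 0.57. BNA2, the first enzyme of NAD synthesis from tryptophan, read -1.45, -1.49 and -2.64 in wild type and 0.68, 0.76 and 0.22 in the mutant (log2 difference 2.41, SE 0.26, adjusted p = 2.88e-06), with wild-type array 3 lowest. BNA1, a later enzyme of that route, read -1.51, -1.82 and -1.56 in wild type and 0.04, 0.00 and -0.02 in the mutant (log2 difference 1.64, SE 0.19, adjusted p = 5.08e-06). BIO2, biotin synthase, rose by 1.22 (adjusted p = 5.11e-05), and BNA6 (0.91), BNA5 (0.83) and BNA3 (0.76) rose by less than 2-fold. SNO1, of vitamin B6 synthesis, read -1.25, -1.64 and -1.35 in wild type and 0.40, 0.58 and 0.20 in the mutant (log2 difference 1.81, SE 0.12, adjusted p = 1.69e-08). Of 15 genes in a list of Gcn4 and its targets 8 rose and 1 fell, the latter being GCN4 itself (-0.19, adjusted p = 0.0105, or 0.0561 without mutant array 3, 0.0511 without the 3 YPD arrays numbered 3 and 0.115 with only the 6 arrays compared). SER3 of serine synthesis (1.10) was the only other called gene of that list beside SNO1. Branched-chain amino acid genes went both ways, with 3 of 12 higher and 3 lower and a median of -0.09. The one call among them was BAT2, the cytosolic branched-chain transaminase, which read -1.71, -1.95 and -1.59 in wild type and -0.0036, 0.00 and 0.10 in the mutant (log2 difference 1.78, SE 0.13, adjusted p = 3.31e-08). LEU2, of leucine synthesis, was called too (3.35) and is not in that list, being treated as a marker. The mutant carries it on the plasmid, the wild type is leu2Δ0, and the part of that marker in these values was not tested. Of 8 arginine genes 4 rose and none fell (1 with the replicate block within the 9 YPD arrays, 2 without the 3 YPD arrays numbered 3), and of 6 histidine genes 3 rose and none fell. ARG4, of arginine synthesis, rose by 1.15 (adjusted p = 4.85e-05), and HIS4 differed by 0.71 (adjusted p = 0.0522). With the replicate number as a block the adjusted p of HIS4 was 0.0203, and it was 0.022, 0.03 and 0.0294 without wild-type array 3, mutant array 1 and mutant array 2. Of 20 purine genes 6 rose (30%) and 1 fell (5%), beside 21.2% and 12.1% of all genes. The largest difference was that of IMD2, an IMP dehydrogenase, which rose by 1.54 (adjusted p = 3.24e-05). Pyrimidine genes went both ways, with 5 of 14 higher and 2 lower. URA1, the dihydroorotate dehydrogenase, read 0.82, 0.82 and 0.69 in wild type and -0.58, -0.67 and -0.95 in the mutant (log2 difference -1.51, SE 0.09, adjusted p = 4.80e-09), while URA10 and the uracil permease gene FUR4 rose by 1.17 and 1.07 (adjusted p = 0.00225 and 0.00109). The mutant carries a working URA3, the wild type does not, and the part of that marker in these values was not tested.

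Nitrogen genes went both ways. Of 23 nitrogen catabolic enzymes 11 rose and 3 fell, with a median of 0.46. The 3 that fell are enzymes of amino acid breakdown: CHA1, ARO10 (log2 difference -2.12, adjusted p = 0.000368) and ARO9 (log2 difference -1.16, adjusted p = 0.00269), the latter pair acting on aromatic amino acids. Those that rose with the largest differences were the vacuolar aminopeptidase gene APE1 (log2 difference 1.43, adjusted p = 0.000378), the allantoinase gene DAL1 (log2 difference 1.28, adjusted p = 5.08e-06) and UGA1 (1.13) and PUT2 (1.002). GAP1, the general amino acid permease, read -1.43, -1.45 and -1.96 in wild type and -0.35, 0.00 and 0.57 in the mutant (log2 difference 1.69, SE 0.18, adjusted p = 2.01e-06). DAL80, a repressor of the same group of genes, read -0.81, -0.93 and -0.78 in wild type and 1.20, 1.15 and -0.34 in the mutant, so that mutant array 3 was near the wild-type arrays (log2 difference 1.51, SE 0.30, adjusted p = 0.00101). BAP2, a branched-chain amino acid permease, and MEP3, an ammonium permease, fell by 0.87 and 0.82 (adjusted p = 0.000166 and 4.89e-05), and 4 of the 18 permease genes fell without the 3 YPD arrays numbered 3. Of the regulators, STP3, the closest relative of STP4, fell by 0.72 (adjusted p = 0.00131). With only the 6 arrays compared the adjusted p was 0.0513 (DAL80) and 0.0505 (STP3).

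Meiotic and spore wall genes, which growing haploid cells keep off, were higher in part. Of 35 measured genes 17 rose and 3 fell, 7 of the rises and 1 of the falls being called, with a median of 0.28. CDA1, a chitin deacetylase of the spore wall, read -3.24, -2.54 and -2.97 in wild type and 0.00, 0.11 and -0.54 in the mutant (log2 difference 2.78, SE 0.19, adjusted p = 2.38e-08). SPR3, a septin of sporulation, read -1.64, -1.62 and -2.39 in wild type and 0.29, 0.25 and 0.01 in the mutant (log2 difference 2.07, SE 0.17, adjusted p = 1.68e-07). SPO20, a SNARE of the spore membrane, rose by 1.66, DIT1, of dityrosine synthesis, by 1.65, and HOP1, of meiotic chromosomes, by 1.36 (adjusted p = 1.40e-06, 7.10e-07 and 6.10e-05). The falls included IME1, the inducer of meiosis (log2 difference -0.82, adjusted p = 2.48e-05), and GAS2, a spore wall glucanosyltransferase (log2 difference -1.38, adjusted p = 0.000215), and there were 5 falls without wild-type array 3. Of the mating genes, ASG7, an a-cell gene, read -0.09, 0.00 and 0.39 in wild type and 2.38, 1.94 and 1.74 in the mutant (log2 difference 1.92, SE 0.20, adjusted p = 2.60e-06). FUS1 and PRM1, which act in cell fusion, rose by 1.17 and 1.28 (adjusted p = 1.29e-05 and 0.00629), while 4 of 23 pheromone response genes fell. Those 4 falls depended on single arrays, with none left without wild-type array 2 and 1 left without mutant array 3, and leaving out mutant array 3 or the 3 YPD arrays numbered 3 raised the rising members from 3 to 6. MFA2, an a-factor gene, fell (log2 difference -0.67, adjusted p = 0.000704). PRM1 did not pass with only the 6 arrays compared (adjusted p = 0.0573).

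Phosphate, oxygen and subtelomeric genes held further large rises. Of 20 phosphate genes 8 rose and 2 fell. PHO89, a sodium-dependent phosphate transporter, read -1.38, -0.89 and -0.16 in wild type and 1.69, 1.38 and 0.76 in the mutant (log2 difference 2.09, SE 0.45, adjusted p = 0.00178). PHO11, an acid phosphatase read by a probe set that may also bind PHO12, rose by 2.35 (adjusted p = 0.000451), and PHM8, a phosphatase, fell (log2 difference -1.51, adjusted p = 0.00657). ANB1, the low-oxygen form of the translation factor eIF5A, read -1.07, -0.77 and -0.60 in wild type and 1.27, 1.17 and 1.04 in the mutant (log2 difference 1.97, SE 0.17, adjusted p = 3.31e-07), and ROX1, the repressor of low-oxygen genes, read 1.06, 1.02 and 0.79 in wild type and -0.16, -0.01 and -0.65 in the mutant (log2 difference -1.23, SE 0.16, adjusted p = 2.38e-05). AAC3, the low-oxygen ADP/ATP carrier, rose by 1.32 (adjusted p = 1.71e-06). The low-oxygen list was mixed, with 8 of 30 higher (26.7%) and 3 lower (10%), near the shares over all genes (21.2% and 12.1%). Beside ROX1, the mannoprotein gene TIR3 and the flavohaemoglobin gene YHB1 fell by 1.38 and 1.32 (adjusted p = 6.93e-05 and 2.31e-07). COS12, of a family of subtelomeric membrane proteins, read -3.21, -3.28 and -3.09 in wild type and 0.29, 0.25 and -0.34 in the mutant, a 9.57-fold rise (log2 difference 3.26, SE 0.29, adjusted p = 2.98e-07). The other 8 measured members of that family lay between 0.03 and 0.48. YGL262W, an uncharacterised gene, read -2.26, -2.57 and -2.21 in wild type and 0.83, 0.79 and -0.002 in the mutant (log2 difference 2.88, SE 0.28, adjusted p = 7.85e-07), and YHL012W rose by 2.11 (adjusted p = 7.42e-06). PAU2 and PAU24 rose by 1.59 and 1.42 (adjusted p = 8.52e-06 and 9.94e-08). Members of the HXT, COS and PAU families are alike in sequence, so a probe set may read relatives of the gene it is named for.

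Large housekeeping groups differed in their counts, and several counts depended on the arrays and the block. Of 128 cytosolic ribosomal protein genes 1 rose and 1 fell, with a median of -0.05. Leaving out single arrays gave 1 to 2 rises and 0 to 3 falls, the replicate block within the 9 YPD arrays 2 rises and 6 falls, and the array weights, which did not converge, 28 falls. Of 65 ribosome biogenesis genes 9 fell and none rose, with a median of -0.20. With the replicate block within the 9 YPD arrays 34 of the 65 fell and 1 rose, where 17.8% of all genes fell and 24.9% rose. The falls numbered 4 without wild-type array 1, wild-type array 2, mutant array 2 or mutant array 3, 5 with only the 6 arrays compared or the 9 YPD arrays, and 15 without wild-type array 3 or the BY4742 arrays. Of 34 proteasome genes 4 rose and none fell, a count of 2 without wild-type array 2 or mutant array 3 and of 8 without wild-type array 3. Respiratory genes had 9 falls and 4 rises among 45, with a median of -0.14, and HAP4 was the only call among them. The falls numbered 5 without wild-type array 1, wild-type array 2 or mutant array 3, 2 with only the 6 arrays compared and 3 with only the 9 YPD arrays. Of 28 iron and copper genes 6 rose (21.4%) and 4 fell (14.3%), near the shares over all genes (21.2% and 12.1%). The rises numbered 12 without wild-type array 3, where 22.4% of all genes rose. FIT3, a cell wall protein that retains iron, read -0.46, 0.00 and 1.48 in wild type and 0.64, 0.69 and 0.26 in the mutant, with wild-type array 3 the highest, and passed without it (adjusted p = 0.0471). Leaving out mutant array 1 or 2 gave 3 rises, where 18.4% and 19% of all genes rose. Leaving out the 3 YPD arrays numbered 3 gave 13, where 21% of all genes rose. FET3 and CTR1, of iron and copper uptake, fell by 0.85 and 0.87 (adjusted p = 0.000385 and 1.28e-07).

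**Figure D3:**
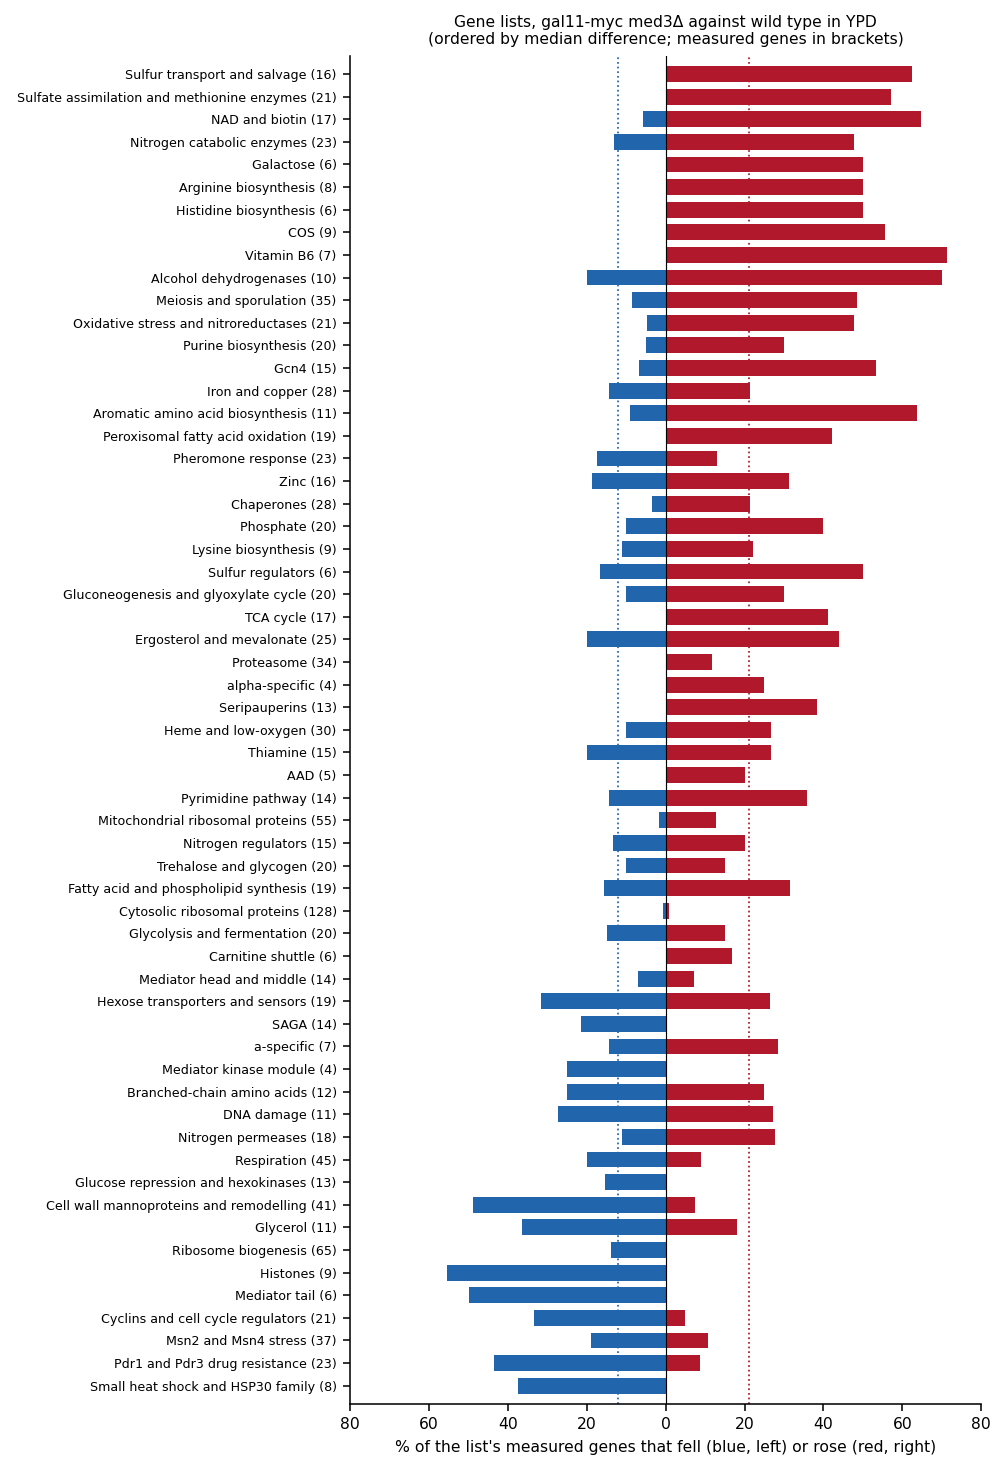
Share of each list's measured genes that rose (red, to the right) or fell (blue, to the left) at an adjusted p under 0.05, for 59 lists ordered by their median log2 difference, with the number of measured genes in brackets. Dotted lines mark the shares over all genes (21.2% risen, 12.1% fallen), and the lists at the ends are sulfur transport and salvage (10 of 16 risen) and the small heat shock and HSP30 family (3 of 8 fallen, or 5 with the replicate block within the 9 YPD arrays).

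Of the 236 called genes 109 were in at least 1 of the 59 lists and 127 in none, and 40 had only a systematic name. Probe sets of a kind that can bind several transcripts (_s_at or _x_at) gave 9 of the calls. Large changes outside the lists, named after their values were seen, included the falls of PRM7 (-2.50), AQY1 (-2.43), NCA3 (-2.23) and PHD1 (-1.94) and the rises of PRM9 (1.94), SPS22 (1.89), AAP1 (1.81) and MAL32 (1.66). AQY1 encodes a water channel of spores and PHD1 an activator of filamentous growth, MAL32 a maltase and AAP1 an aminopeptidase. PHD1 read 1.61, 1.72 and 1.16 in wild type and -0.40, -0.42 and -0.51 in the mutant (log2 difference -1.94, SE 0.15, adjusted p = 9.74e-08), and PRM9 read -1.40, -1.54 and -1.30 in wild type and 0.57, 0.54 and 0.46 in the mutant (log2 difference 1.94, SE 0.09, adjusted p = 7.21e-11).

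Smaller groups held further changes. Of 19 genes of peroxisomal fatty acid oxidation 8 rose and none fell, led by POX1, the first enzyme of the pathway (log2 difference 1.43, adjusted p = 0.000332). A single fall appeared without mutant array 2 or 3. Of 17 genes of the TCA cycle and its entry reactions 7 rose and none fell (2 with the replicate block within the 9 YPD arrays), with DLD3, a lactate dehydrogenase, as the one call (log2 difference 1.43, adjusted p = 5.84e-05). DLD3 read -1.62, -1.48 and -0.96 in wild type and 0.00, -0.27 and 0.52 in the mutant. One fall appeared in that list without mutant array 3. Of 10 alcohol dehydrogenases 7 rose and 2 fell, and next to ADH2 the largest differences were those of BDH2 (log2 difference -1.15, adjusted p = 0.0094), a butanediol dehydrogenase, and ADH5 (log2 difference 0.98, adjusted p = 0.00945). Without mutant array 3 the adjusted p was 0.0591 for BDH2 and 0.0546 for ADH5. Of 7 measured vitamin B6 genes 5 rose and none fell. Of 15 thiamine genes 4 rose (26.7%) and 3 fell (20%), beside 21.2% and 12.1% of all genes, and the falls numbered 2 to 6 over the alternatives. The calls were THI13 of thiamine precursor synthesis (1.49) and the thiamine transporter gene THI7 (1.24). THI7 read -0.06, -0.31 and -0.45 in wild type and 1.37, 1.26 and 0.29 in the mutant (log2 difference 1.24, SE 0.20, adjusted p = 0.000154). Of 11 glycerol genes 4 fell and 2 rose, and GPP2 and GPD2, the partners of GPD1 in glycerol synthesis, fell by 0.64 and 0.60 (adjusted p = 0.00469 and 0.000451). Ergosterol genes moved by little, with 11 of 25 higher and 5 lower and none past 2-fold. The lower ones numbered 3 without the 3 YPD arrays numbered 3, and 1 to 8 over the alternatives. The 3 falls among the 14 measured SAGA genes, a coactivator complex that acts with Mediator, were those of TRA1, GCN5 and UBP8 (-0.51, -0.50 and -0.30).

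The same strains were compared in CSM on 6 other arrays. There 339 genes were called (6.22%), 161 higher (2.95%) and 178 lower (3.27%). At any size 1995 genes (36.6%) passed the test, 22.4% of all genes higher and 14.2% lower. Chromosome II stood apart in that comparison: the median difference of its 387 genes was -0.74, while the other 15 chromosomes lay between 0.06 and 0.15. The shift came with the wild-type CSM arrays, whose chromosome II medians were 0.61, 0.61 and 0.65, whereas the mutant CSM arrays lay between -0.07 and -0.01. It covered both arms (medians -0.78 and -0.72). Of the 339 calls 99 were on chromosome II. What this shift reflects was not tested.

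Of the 140 genes called higher in YPD 76 were called higher in CSM, which is 54.3% of the YPD list and 47.2% of the CSM list. Of the 96 called lower in YPD 60 were called lower in CSM, which is 62.5% of the YPD list and 33.7% of the CSM list. Without chromosome II, the shared falls were 52, which is 59.1% of the YPD list and 65.0% of the CSM list. The sign was the same in 130 of the 140 and 92 of the 96, and GAL7, on chromosome II, was the only gene called in opposite directions in the 2 media (1.16 in YPD and -1.07 in CSM). Of the genes with large changes, PGD1 and STP4 fell in CSM by 4.05 and 3.15, and COS12, BNA2 and MET2 rose by 3.59, 3.24 and 3.01.

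The change between media was tested directly, as the difference of the 2 effects, and 167 genes were called (3.06%), 54 with a higher (0.991%) and 113 with a lower difference in CSM (2.07%). At any size 745 genes (13.7%) passed, 5.51% of all genes with a higher and 8.17% with a lower difference. Of these calls 90 were on chromosome II, and without that chromosome 67 genes were called, 47 with a higher and 20 with a lower difference in CSM. Among the genes called in YPD, 23 of the 140 rises and 16 of the 96 falls were called by this test, beside 3.06% of all genes. The test contains the same 6 YPD arrays that chose these genes, which favours a higher share among them. The counts are therefore no result about these genes. CHA1 fell by 2.82 in YPD and differed by -0.62 in CSM (adjusted p = 0.14), and the adjusted p of the change was 0.00243. The CSM arrays, on a scale of their own, read 0.12, 0.00 and -0.11 in wild type and -0.62, -0.64 and -0.59 in the mutant. SHH3, similar to a succinate dehydrogenase subunit, differed by -2.14 and 0.14 (adjusted p of the change = 4.90e-05). RGS2 fell in both media, by 3.08 in YPD and 1.45 in CSM (adjusted p of the change = 0.00182), as did MDH2, by 2.73 and 1.76 (adjusted p of the change = 5.56e-05). ANB1 rose by 1.97 in YPD and 3.73 in CSM (adjusted p of the change = 8.34e-05). HXT2, RPS9A, ZRT1 and CRC1 rose in CSM, by 2.14, 3.01, 2.76 and 2.17, against -0.63, 0.30, 0.21 and -0.30 in YPD (adjusted p of the change = 3.98e-06, 2.43e-06, 2.90e-06 and 3.56e-06). ZRT1 is the high-affinity zinc transporter and CRC1 the mitochondrial carnitine carrier. In the other direction, HIS4 and the meiotic gene SPO22 differed by 0.71 and 0.84 in YPD and by -1.90 and -1.46 in CSM (adjusted p of the change = 0.000131 and 2.31e-05). The YPD values of RPS9A, ZRT1 and CRC1 passed when 1 array was left out, with adjusted p-values of 0.0416 and 0.0127 for the former pair without mutant array 3 and 0.0185 for CRC1 without wild-type array 3, and that of RPS9A also with the replicate block within the 9 YPD arrays (0.0241). ECM13, HSP26 and ADH5, which also had changes among the most negative, lie on chromosome II.

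**Figure D4:**
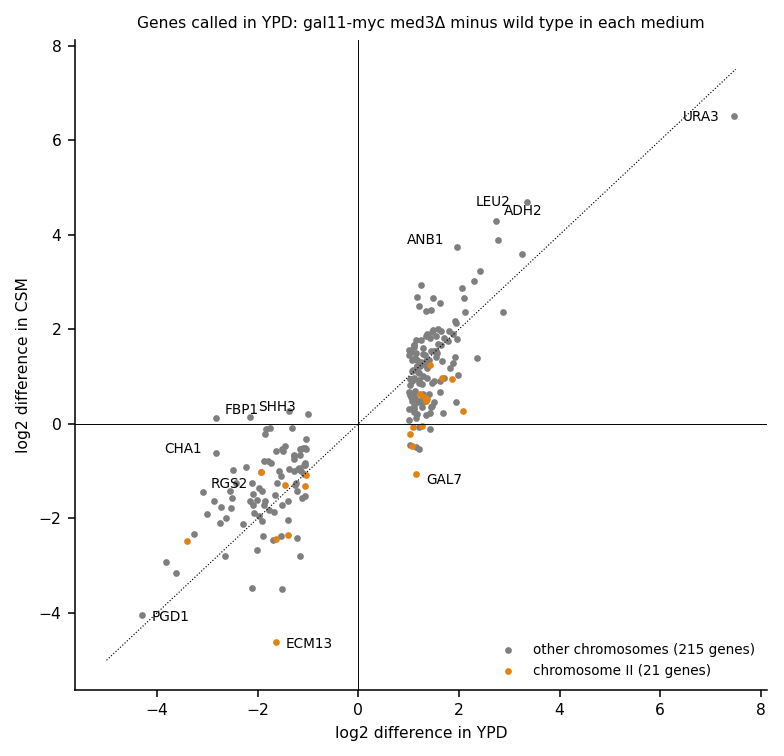
Log2 difference between mutant and wild type in YPD (x axis) and in CSM (y axis) for the 236 genes called in YPD, with the 21 genes of chromosome II in orange and equality as a dotted line. Most points lie in the lower left and upper right, FBP1 and SHH3 lie near 0 in CSM, and chromosome II genes such as GAL7 and ECM13 lie low.

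The tagged strain was also set beside gal11Δ med3Δ in YPD. The comparisons of both mutants with wild type share the 3 wild-type arrays, so only values are given side by side, and the mutants were tested against each other. In that test 110 genes were called (2.02%), 42 higher (0.771%) and 68 lower (1.25%) in the tagged strain, and 823 (15.1%) had an adjusted p under 0.05, 6.15% of all genes higher and 8.96% lower. Here chromosome V stood apart: its 259 genes had a median of -0.80, while the other 15 chromosomes lay between 0.02 and 0.05. The gal11Δ med3Δ arrays had chromosome V medians of 0.62 to 0.65. Of the 110 calls 51 were on chromosome V, and 54 genes were called when it was left out, 39 higher and 15 lower, so that 72.2% of the calls were higher against 38.2% with it. The cause of the shift was not tested. The strains also differ in mating type and in LYS2, which was lower in gal11Δ med3Δ than in wild type (-6.50) though its label names no lys2 deletion.

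Of the 140 genes called higher in gal11-myc med3Δ 35 differed between the mutants at an adjusted p under 0.05, and of the 96 called lower 30 did, beside 15.1% of all genes. The test between mutants uses the same gal11-myc med3Δ arrays that chose these genes, which favours a higher share among them. The counts are therefore no result about these genes. For some of the largest changes the difference between mutants was small, while others, given further below, differed. FMP48 was -3.83 against wild type in gal11-myc med3Δ and -3.88 in gal11Δ med3Δ (difference between mutants 0.05, adjusted p = 0.903), COS12 was 3.26 and 3.35 (-0.09, adjusted p = 0.88), and MET2 was 2.30 and 2.30 (0.01, adjusted p = 0.995). Genes lower in the tagged strain than in gal11Δ med3Δ included MIG3, a relative of MIG2, at 0.49 against wild type in gal11-myc med3Δ and 3.02 in gal11Δ med3Δ (6.87e-05), its value against wild type passing without mutant array 2 alone (adjusted p = 0.0378), and the acyl-CoA synthetase gene FAA2, at 0.20 and 2.35 (1.46e-05). A p above the threshold does not show that the mutants were alike in these genes. Several falls were smaller in the tagged strain. STP4 was -3.61 in gal11-myc med3Δ and -4.47 in gal11Δ med3Δ (adjusted p between mutants = 0.00416), YRO2 -3.40 and -5.18 (0.00065), HSP30 -3.27 and -4.98 (0.000463), and CHA1 -2.82 and -4.58 (0.000744). In a fit of the compared arrays alone the adjusted p was 0.0772 for STP4, 0.0632 for YRO2 and 0.0502 for HSP30. The falls of YER053C-A, YGP1, TPO2 and TDA6 were smaller in the tagged strain too (adjusted p between mutants = 0.045, 0.029, 0.045 and 0.0298). With the compared arrays alone YGP1, TPO2 and TDA6 did not pass (0.211, 0.274 and 0.0956). MDH2 went the other way, at -2.73 and -1.63 (1.61e-07), with a larger fall in the tagged strain. Of the largest rises, ANB1 was 1.97 and 0.88 (0.000269), HXT11 1.98 and 1.09 (0.0127), PHO89 2.09 and 0.58 (0.0315) and CDA1 2.78 and 3.37 (0.0454). With the compared arrays alone HXT11, PHO89 and CDA1 did not pass (0.0569, 0.0724 and 0.151). POX1 rose by 1.43 in gal11-myc med3Δ and by 3.57 in gal11Δ med3Δ (adjusted p between mutants = 9.16e-06), and SPS19 of the same pathway by 1.21 and 2.42 (6.88e-06). FIT1, FIT2 and FIT3, cell wall proteins that retain iron, were higher in gal11-myc med3Δ than in gal11Δ med3Δ by 1.84, 1.96 and 1.81 (adjusted p = 0.000423, 0.00333 and 0.00272). Of the 3, FIT1 passed against wild type (log2 difference 1.27, adjusted p = 0.00423), though not with only the 6 arrays compared (adjusted p = 0.0535). LSO1, an iron-responsive gene, read -0.85, 0.00 and 2.92 in wild type, 2.14, 2.39 and 2.26 in gal11-myc med3Δ and -0.36, -0.83 and -0.05 in gal11Δ med3Δ, so that wild-type array 3 lay above the mutant arrays and the other wild-type arrays below. Against wild type its adjusted p was 0.0591, 1.49e-05 without wild-type array 3 and 0.0472 with the replicate number as a block.

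**Figure D5:**
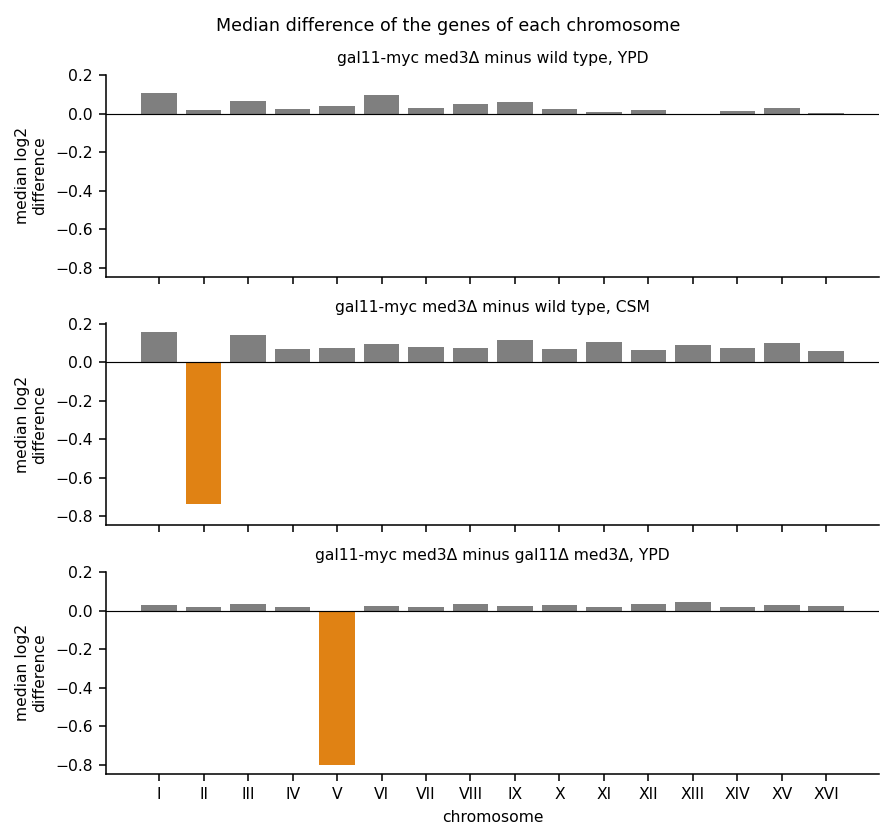
Median log2 difference of the genes of each chromosome (bars, x axis the 16 chromosomes) for gal11-myc med3Δ against wild type in YPD (top) and in CSM (middle) and against gal11Δ med3Δ in YPD (bottom). The top panel shows no chromosome beyond 0.11, while chromosome II in CSM (-0.74) and chromosome V between the mutants (-0.80), both in orange, stand apart.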

How the data were processed

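RNA was measured on Affymetrix arrays, which report per probe set. The deposited values are log2 intensities made by the authors with RMA in GeneSpring 11.5.1, per the file headers and the submitters' processing notes. In 3 sets of arrays (9 in YPD, 9 in CSM and 3 of BY4742) the median of every probe set was exactly 0, so the values are relative and were compared within a set only. The authors' deposited table for YPD lists each probe set's signed fold with a corrected p-value, used here as an alternative. Of 10928 probe sets 7244 had 1 gene symbol, and 5498 were matched to S. cerevisiae through the platform annotation and a RefSeq gene table (R64), giving 5449 genes. Probe sets of the same gene (47 genes) were averaged.

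Group means of all 21 arrays in 7 groups were fitted with limma 3.58.1 in R 4.3.3 (lmFit, eBayes, 14 residual degrees of freedom), with Benjamini-Hochberg adjustment over all genes. The 3 BY4742 arrays add only to the estimate of spread, and 3 arrays per group limit the precision. The groups differed in spread. The median standard deviation of a gene was 0.137 in wild type and 0.116 in gal11-myc med3Δ in YPD, against 0.0556 and 0.0463 in CSM. It was 0.111 and 0.141 in gal11Δ med3Δ (YPD and CSM) and 0.0842 in BY4742. Where the YPD arrays of a gene spread more than the others, the shared estimate makes its YPD p-value too small. The fit was checked on simulated data. Alternatives changed the arrays, the replicate block, scaling, probe sets, weights and moderation. In YPD the deviations of arrays of the same number had correlations over genes of 0.146, 0.404 and 0.535 between wild type and mutant. Wild-type array 1 went more with mutant array 2 (0.45), and wild-type array 2 went nearly as much with mutant array 1 (0.375). These values set the arrays numbered 3 apart and do not pair arrays 1 and 2 by number. The titles' numbers were used as a block in an alternative fit only. In CSM the correlations at the same number were -0.0344, 0.0675 and 0.00461.

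The genes, the 59 lists and the tests were chosen with earlier results of these data known, so no list is independent support for its direction. Named were the targeted genes, the 15 largest rises and falls without overlap between groups, up to 5 genes per list, all Mediator genes, chromosomal neighbours of the targeted genes, the 8 largest changes each way between media and between mutants, and genes next to the 2-fold limit. A filter on dim probe sets was not possible. Promoter sequences were not used here, and 1 further gene list is not reported here.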

Additional observations from a re-analysis of the deposited data

Results flagged for a closer look

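The difference between mutant and wild type was not the same in CSM as in YPD, by a test of that change with an adjusted p under 0.05 and a size of at least 2-fold, for 40 of the genes named above. Of all genes 3.06% were called by this test. Some of the 40 were named for that change and others for a large YPD difference, which is part of the test. The values below are the log2 difference in CSM minus that in YPD. It was HXT2 (2.77), RPS9A (2.71), ZRT1 (2.55) and CRC1 (2.46) for the genes that rose in CSM. For genes lower in YPD, positive values were found for SHH3 (2.28), CHA1 (2.20), TIR3 (1.65), RGS2 (1.63), YHB1 (1.23), YGR035C (1.21), AQY1 (1.18), TDA6 (1.14) and WSC4 (1.11). For genes higher in YPD, they were found for ANB1 (1.76), THI7 (1.70), ADH2 (1.57), FUS1 (1.498), SPS19 (1.29) and CDA1 (1.11). Negative values outside chromosome II were those of HIS4 (-2.61), SPO22 (-2.30), PHM8 (-1.99), ARO9 (-1.65), ARG4 (-1.64), DLD3 (-1.54), GTT1 (-1.48), GAP1 (-1.46), APE1 (-1.21) and SAM2 (-1.16). ARG4, GAP1, APE1 and HIS4 act in amino acid synthesis, uptake or release. On chromosome II, whose genes were shifted as a whole in the wild-type CSM arrays, the values were ECM13 (-2.99), HSP26 (-2.81), GAL7 (-2.23), ADH5 (-1.85), FUR4 (-1.53), MET8 (-1.33), GAL1 (-1.25), LYS2 (-1.18), RAD16 (-1.17), GAL10 (-1.15) and MED8 (-1.09), beside a chromosome median of -0.81. The part of that shift in these 11 values was not tested. The calls of ADH2, SAM2, APE1, WSC4 and PHM8 were lost when single arrays were left out, with adjusted p-values up to 0.134, 0.122, 0.101, 0.0801 and 0.0602. Those of ADH2 and SAM2 were also lost with only the arrays compared (0.116 and 0.105) and without the BY4742 arrays (0.0611 and 0.054). Robust moderation gave 0.0501 and 0.0503, and centring the arrays on their medians gave 0.0526 for ADH2.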

How the results depend on the processing

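Of the 193 genes named, 142 kept their side of the threshold in YPD under every alternative but the authors' deposited table, and 155 of those past it kept it when any 1 array was left out. The called genes in YPD (236) numbered 215 with only the 6 arrays compared, 237 with the replicate number as a block and 239 to 271 when 1 array was left out. Without the 3 YPD arrays numbered 3, an alternative chosen after seeing the data, 254 were called and 210 of the 236 kept. The block, also within the 9 YPD arrays (241, chosen after seeing the data), moved none of the counts of genes called at 2-fold by over 1.5 times. It did move counts of list members by more than that, and many but not all of these are given above. Within the 9 YPD arrays, trehalose and glycogen genes went from 3 to 6 rises and from 2 to 4 falls. Falls went from 2 to 4 among glucose repression and hexokinase genes and from 3 to 5 among glycolysis and fermentation genes. The named genes whose call the block changed are given with their values. Of the genes named, 25 lost the threshold with only the 6 arrays compared and 6 with only the 9 YPD arrays (GCN4, HXT2, MED4, MET14, MMP1 and SAM3, at 0.0515 to 0.0849). At 2-fold and the corrected p of the authors' deposited table, 101 genes were called, and only 100 of the 236 kept their call. Many named genes lost the threshold there, among them LEU2 (0.138), HXT1 (0.15), MIG2 (0.139), ADH2 (0.125), YGP1 (0.118), TPO2 (0.151) and CHA1 (0.0602). Others passed there too, among them PGD1, FMP48, STP4, RGS2, WSC4, MDH2 and COS12. In CSM 334 to 343 genes were called leaving out 1 array (339 with all, 340 with the block), between media 152 to 219 (167, 166) and between the mutants 85 to 165 (110, 111). Leaving out chromosome II, chosen after seeing the data, gave 67 calls between media and 240 in CSM, of which 66.7% were higher (47.5% with it). Leaving out chromosome V, likewise chosen later, gave 54 calls between the mutants, 72.2% of them higher (38.2% with it). Fewer genes are tested there by construction. Genes with an adjusted p under 0.05 at any size varied more. In YPD they numbered 1816, against 1147 (only the arrays compared), 3542 (array weights) and 452 (authors' deposited table). In CSM they numbered 1995, against 3492 and 3820 (only the arrays compared, array weights). Between media they numbered 745, against 2961 (array weights) and 330 (no chromosome II). Between the mutants they numbered 823, against 461 (only the arrays compared), 481 (9 YPD arrays), 2096 (array weights), 516 (no chromosome V), 538 and 540 (without mutant array 1 or 2) and 1249 (without the arrays numbered 3). The array weights did not converge, and with them FAA2 and FIT2 turned in YPD (-0.42 and 0.42). The cause was not tested. The authors' table and its filter on probe sets were not run for CSM or between media, and its values not between the mutants. No level above background can be set on centred values, so which genes are too dim to measure is unknown.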
